A study of Mus musculus with 12 samples.

Results

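Htr1f, Drd3, Adcy5, Adcy9 and Gal were chosen by name from the 35129 gene entries of the deposited count table as genes of monoamine signalling through cyclic AMP (cAMP) and of the neuropeptide galanin. All 5 had an entry, and 4 of them held a count in at least 1 of 10 libraries. Drd3 held none. Cortical neurons were collected by hand from 2 transgenic mouse lines. Male GIN mice on an FVB background, whose enhanced green fluorescent protein marks a subset of somatostatin interneurons, gave the Sst libraries. Male thy1-YFP-H mice on a B6 background, whose yellow fluorescent protein marks layer V pyramidal neurons, gave the Thy1 libraries. The mice weighed 20 g, were 5 to 7 weeks old and carried a subcutaneous mini pump for 14 days, which delivered saline (groups Sst and Thy1) or nicotine hydrogen tartrate at 48 mg/kg/d (groups Sst+Nic and Thy1+Nic). The libraries analysed were 3 of Sst, 2 of Sst+Nic, 2 of Thy1 and 3 of Thy1+Nic, each from the pooled cells of 1 mouse. Not analysed here were replicate 1 of Sst+Nic and that of Thy1. The cell types came from different mouse lines, so that cell type and strain cannot be told apart.

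Serotonin and dopamine act on cortical neurons mostly through receptors coupled to G proteins. Htr1f (the serotonin 1F receptor, a target of migraine drugs) and Drd3 (the dopamine D3 receptor) couple to inhibitory Gi proteins, which lower the activity of adenylyl cyclases. These enzymes make cAMP, which activates protein kinase A and, through the transcription factor CREB, genes that carry a cAMP response element. Adcy5 is a cyclase best known from the striatum, where dopamine receptors control it in both directions, and Adcy9 is a broadly expressed cyclase that is insensitive to the plant diterpene forskolin. Gal encodes the precursor of galanin, a neuropeptide whose receptors include Gi-coupled ones.

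In these libraries Htr1f counts were lower in Sst-neurons than in Thy1-neurons under saline and under nicotine, without overlap of the libraries in either treatment, and they were at or near 0 in both Sst+Nic libraries. The difference passed the test used here in neither treatment, nor over both, and in some other fits it did. Both cyclases were counted in every library, and Adcy9 was lower in Sst-neurons on average, with libraries that overlapped within each treatment. Gal was counted in 5 of 10 libraries, and every group held a library with Gal and one without. None of the 4 genes passed the test after nicotine in either cell type.

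Both receptors and both cyclases lie on chromosome 16 and Gal on chromosome 19 of GRCm38 (positions from RefSeq). Htr1f lies at chr16:64924729-65105784 on the minus strand, Drd3 at chr16:43754015-43825982 on the plus strand, Adcy5 at chr16:35154494-35305743 on the plus strand, Adcy9 at chr16:4284886-4437236 on the minus strand and Gal at chr19:3409915-3414544 on the minus strand. All 5 are entries of the type mRNA. Their promoter windows, from 250 bases before to 50 bases after a start site, were read from RefSeq (GRCm38.p6), and all 5 genes matched. For Htr1f and Gal this site was the upstream end of the span printed above. The windows of Drd3, Adcy5 and Adcy9 lay wholly inside the printed spans, at a start site other than the printed end. The windows of both receptors are shown because 1 of the genes was counted in 9 libraries and the other in none, and those of Adcy9 and Gal because they hold the core letters TGACG of the cAMP response element. Capitals mark this core, searched on both strands (TGACG or CGTCA).
Htr1f (chr16:65105735-65106034, minus strand): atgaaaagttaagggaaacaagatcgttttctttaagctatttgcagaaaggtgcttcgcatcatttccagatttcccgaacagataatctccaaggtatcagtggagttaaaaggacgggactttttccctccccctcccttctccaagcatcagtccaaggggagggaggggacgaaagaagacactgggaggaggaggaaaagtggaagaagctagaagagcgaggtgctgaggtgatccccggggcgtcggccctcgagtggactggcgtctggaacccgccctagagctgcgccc
Drd3 (chr16:43761971-43762270, plus strand): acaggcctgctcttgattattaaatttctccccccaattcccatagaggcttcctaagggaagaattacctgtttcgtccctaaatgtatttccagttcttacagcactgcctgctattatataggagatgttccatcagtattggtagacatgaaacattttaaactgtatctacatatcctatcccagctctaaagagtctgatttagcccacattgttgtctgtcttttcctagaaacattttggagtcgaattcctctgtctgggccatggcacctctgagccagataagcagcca
Adcy9 (chr16:4420449-4420748, minus strand): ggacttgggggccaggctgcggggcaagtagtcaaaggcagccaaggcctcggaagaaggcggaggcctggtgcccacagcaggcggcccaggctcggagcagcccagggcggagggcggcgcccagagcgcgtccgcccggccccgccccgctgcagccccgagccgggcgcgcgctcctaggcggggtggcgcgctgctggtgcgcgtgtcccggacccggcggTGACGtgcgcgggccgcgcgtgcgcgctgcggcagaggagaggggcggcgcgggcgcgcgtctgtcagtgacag
Gal (chr19:3414495-3414794, minus strand): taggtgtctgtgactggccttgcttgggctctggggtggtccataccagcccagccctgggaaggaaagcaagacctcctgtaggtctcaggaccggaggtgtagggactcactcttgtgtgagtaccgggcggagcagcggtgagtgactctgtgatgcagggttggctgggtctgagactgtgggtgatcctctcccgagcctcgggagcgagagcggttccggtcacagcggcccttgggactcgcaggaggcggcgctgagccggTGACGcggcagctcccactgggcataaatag
The core was present once in the windows of Adcy9 and Gal and was not found in the other three, against 21.0% of the 27025 promoter windows. The full element TGACGTCA, which contains the core, was found in none of the 5 windows and in 1.88% of all windows. The windows differed in base composition. The window of Drd3 had 42% G and C and that of Htr1f 53%, beside a median of 52.7% over all windows, while those of Gal, Adcy9 and Adcy5 had 63.3%, 78.3% and 79%. A match of letters is a description of the window, not evidence of binding.

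The counts of all entries summed to between 2915738 and 4878326 fragments per library. Most nuclear entries hold only part of their fragments, so that these sums fall short of what was sequenced, and CPM (the count relative to this sum) and percentages are relative to the table, not to the whole library. On this scale a count of 0, which allows up to 3 counts, left up to 0.615 to 1.03 CPM unseen. Intervals of single values are 95% Wilson intervals, and they and these limits cover counting error only. Nothing says that the mice of a group were handled apart, so that p-values measure the spread between these libraries. Sst itself, the gene that names the interneurons, lay between 53779 and 126088 CPM in the 5 Sst-neuron libraries and between 1.15 and 49.2 CPM in 4 Thy1-neuron libraries. Thy1 replicate 3 held 13823 counts of Sst, or 3795 CPM. For the 4 genes with counts, cell type differences over both treatments are given below with and without this library. The pyramidal marker Bcl6 lay between 68.2 and 175.0 CPM in Thy1-neurons and between 2.06 and 8.70 CPM in Sst-neurons. The endothelial marker Cldn5 was counted in 4 libraries (140 in Sst replicate 2, 64 in Sst+Nic replicate 3, 42 in Thy1+Nic replicate 1 and 25 in Thy1+Nic replicate 3) and was at 0 in the rest. The interneuron marker Chodl held 1 count in all. These were the 4 of 40 listed markers with position-checked entries. Mitochondrially encoded genes took 16.3% to 22.2% of the fragments counted in the table in Sst-neurons and 31.6% to 38.7% in Thy1-neurons, shares that would be lower if the other entries held all their fragments. In pooled cells, fewer cells that express a gene and less RNA per cell cannot be told apart.

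Htr1f was counted in 9 of 10 libraries. Under saline its counts in Sst were 141, 8 and 66, or 35.1, 2.04 and 17.8 CPM for replicates 1 to 3. In Thy1 they were 191 and 171, or 54.7 and 46.9 CPM for replicates 2 and 3. Every Sst library lay below both Thy1 libraries, and Sst replicate 2 lay far below the other two of its group, with an interval of 1.03 to 4.03 CPM beside 29.7 to 41.3 CPM for replicate 1. Under nicotine Sst+Nic held 4 counts (1.37 CPM) in replicate 2 and 0 in replicate 3, where up to 0.615 CPM may have gone unseen. Thy1+Nic held 73, 92 and 202 counts, or 21.0, 21.7 and 59.5 CPM. Both Sst+Nic libraries thus lay below all Thy1+Nic libraries and also below all Sst libraries, whereas Thy1+Nic reached above and below Thy1. Over the 10 libraries the standard deviation of log2(CPM + 1) was 2.12 for Htr1f, higher than in 93.2% of the 548 position-checked entries that passed the filter on low counts.

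The comparison of the cell types asks whether the receptor gene is read at different levels in interneurons and pyramidal neurons. Mean CPM of Htr1f was 18.3 ± 16.5 (SD, n = 3) in Sst and 50.8 ± 5.49 (SD, n = 2) in Thy1. The fitted log2 fold change, Sst minus Thy1, was -1.73 (SE 0.94, 95% interval -3.97 to 0.50), and the adjusted p of edgeR's quasi-likelihood test was 0.434. Without Thy1 replicate 3 it was -1.79 (adjusted p = 0.722), and leaving out 1 library gave values from -2.54 to -1.26. Under nicotine the mean of Sst+Nic was 0.686 ± 0.970 (SD, n = 2) and that of Thy1+Nic was 34.1 ± 22.0 (SD, n = 3). The log2 fold change was -6.23 (SE 1.41, 95% interval -9.50 to -2.96), with an unadjusted p of 0.00245 and an adjusted p of 0.114 from edgeR. Against the library with no count, Sst+Nic replicate 3, the mean of Thy1+Nic was at least 55.4-fold higher when 3 counts are taken as the floor of that library, and at least 34.8-fold higher without Thy1+Nic replicate 3, the highest library. Against Sst+Nic replicate 2, with its 4 counts, it was 24.8-fold higher, and the ratio of the group means was 49.7. Over both treatments, with treatment as a term, the log2 fold change was -3.66 (SE 1.18, 95% interval -6.20 to -1.12) and the adjusted p of edgeR was 0.101.

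The libraries of Htr1f did not overlap between the cell types in either treatment. Over both treatments together they did overlap, as Sst replicate 1 (35.1 CPM) lay above Thy1+Nic replicates 1 and 2 (21.0 and 21.7 CPM). Of 8242 entries that passed the filter over all libraries, 14.3% had all Sst libraries below all Thy1 libraries under saline, and 7.5% had all Sst+Nic libraries below all Thy1+Nic libraries. The exact permutation test, two-sided, of the cell type labels within each treatment gave p = 0.01 for Htr1f, which is the smallest value its 100 arrangements can give. The mean difference in log2(CPM + 1) was -3.18. Without Thy1 replicate 3 the difference was -3.23 and the exact permutation p was 0.075, where 40 arrangements allow no p below 0.025. The other 3 genes tested gave exact permutation p-values of 0.42 (Adcy5, difference -0.34), 0.19 (Adcy9, -1.08) and 0.63 (Gal, 0.49). Without Thy1 replicate 3 these were 0.625, 0.225 and 0.45.

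**Figure D1:**
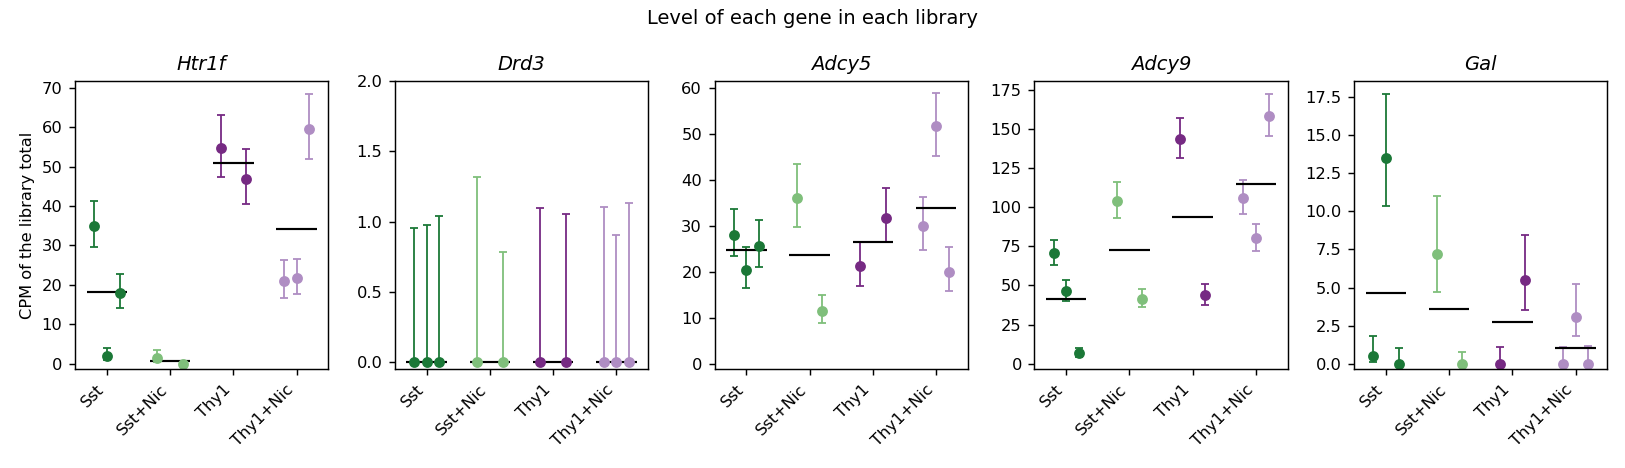
Level of each gene (CPM of the summed counts of the library, linear axis that differs between panels) in each of 10 libraries in the groups Sst, Sst+Nic, Thy1 and Thy1+Nic. Points are libraries, thin bars 95% Wilson intervals (counting error only) and black lines group means. Htr1f is at 1.37 CPM and 0 in Sst+Nic, Drd3 is at 0 throughout, and within each treatment the cell types overlap for Adcy5, Adcy9 and Gal.

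A call was an adjusted p under 0.05 with an absolute log2 fold change above 1. Of the 4 genes tested, 0 were called between the cell types under saline, where 109 of 6350 entries (1.72%) were called. The same held under nicotine, where 33 of 6509 entries (0.507%) were called, and over both treatments, where 381 of 8242 entries (4.62%) were called. At an unadjusted p under 0.05, the genes numbered 0 of 4 under saline beside 16.3% of all entries, 2 of 4 under nicotine (Htr1f and Adcy9) beside 15.7%, and the same pair over both treatments beside 20.5%. DESeq2 called Htr1f under nicotine (log2 fold change -6.33, adjusted p = 1.8e-05) and over both treatments (-3.81, adjusted p = 0.00056), and none of the other genes. It called 7.8% and 10.4% of all entries in these comparisons, well above the shares of edgeR.

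The call of Htr1f depended on the test and the filter, and on single libraries whose removal also moved the filter. Under nicotine the adjusted p over all alternatives ranged from 1.8e-05 to 0.284, and Htr1f was also called there when entries with 10 counts or more in any library were kept (2.91% of entries called) and with no filter (2.65%). Over both treatments the adjusted p was 0.0318 with limma voom and sample quality weights, 0.00674 when entries with 10 counts or more in any library were kept and 0.000265 with no filter on low counts. These 3 fits called 8.41%, 5.6% and 4.09% of entries. The last 2 share the spread more strongly across entries, with 46.1 and 115276 degrees of freedom for Htr1f in place of 13.2. Leaving out Thy1 replicate 2 gave a log2 fold change of -4.70 (adjusted p = 0.0386), and leaving out Thy1 replicate 3, the Thy1-neuron library with the most Sst counts, gave -4.69 (adjusted p = 0.0449), and these fits called 3.87% and 3.5% of entries. Both of these fits also kept more entries (10263 and 10382 in place of 8242) and had 21.4 and 21.5 degrees of freedom. The removal of a library and the change of filter thus came together. Without mitochondrially encoded genes the log2 fold change was -3.67 (adjusted p = 0.0980 from edgeR). With library totals in place of TMM it was -3.30 (adjusted p = 0.134 from edgeR). Over all alternatives to this comparison, the log2 fold change of Htr1f lay between -4.70 and -2.71 and the adjusted p between 0.000265 and 0.207.

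**Figure D2:**
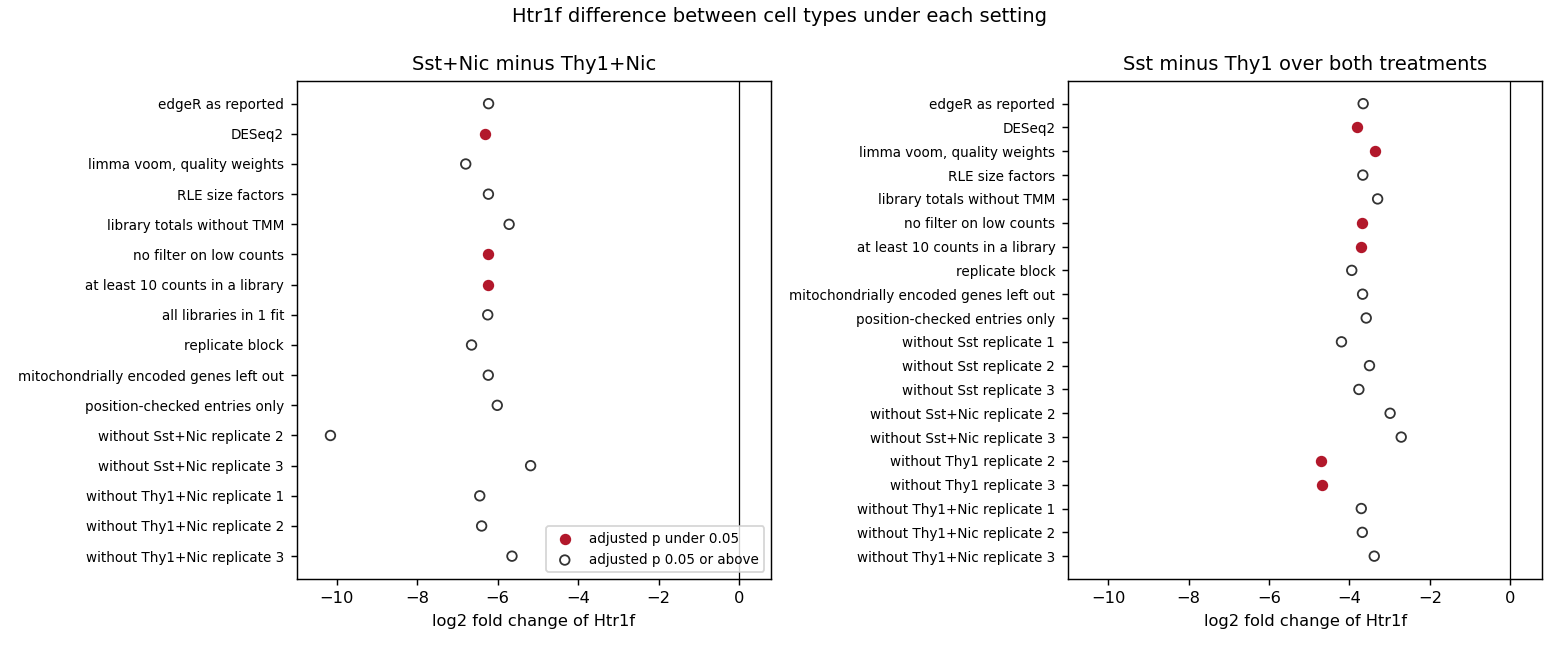
Log2 fold change of Htr1f between cell types (horizontal axis) under each setting of the analysis (vertical axis), for Sst+Nic minus Thy1+Nic on the left and Sst minus Thy1 over both treatments on the right. Filled red points have an adjusted p under 0.05 and open points do not. All points lie below 0, from -10.16 to -5.18 on the left and from -4.70 to -2.71 on the right; the lowest value on the left comes from the fit without Sst+Nic replicate 2, where the remaining library of the group held no count, and is no bound.

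Whether nicotine changed Htr1f was asked within each cell type. In Sst-neurons the log2 fold change, Sst+Nic minus Sst, was -4.95 (SE 2.04, 95% interval -9.75 to -0.15), with an unadjusted p of 0.0447 and an adjusted p of 1.00 from edgeR. Where Htr1f passed the filter with 1 library left out, the value lay between -9.17 (without Sst+Nic replicate 2, which left a library with no count) and -3.96 (without Sst+Nic replicate 3). Both Sst+Nic libraries lay below all 3 Sst libraries, as did those of 4.11% of entries. This order rests on few counts, since the interval of Sst+Nic replicate 2, 0.533 to 3.53 CPM, overlaps that of Sst replicate 2, 1.03 to 4.03 CPM. In Thy1-neurons the value was -0.52 (SE 0.55, 95% interval -1.80 to 0.76, adjusted p = 1.00 from edgeR), and the libraries overlapped. The difference between these nicotine effects was -4.53 (SE 1.68, 95% interval -8.17 to -0.89), with an unadjusted p of 0.0189 and an adjusted p of 0.673 from edgeR. Leaving out the same libraries moved it to -8.45 and -3.41. The comparisons share libraries with each other, so that the 4 counts of Sst+Nic entered the nicotine effect, the cell type difference under nicotine and the difference between the nicotine effects alike.

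Drd3 was at 0 in all 10 libraries. In a single library this allows up to 0.615 CPM in the deepest and 1.03 CPM in the shallowest, and over the 37674061 fragments of all libraries together it allows 0.0796 CPM. Of the 676 position-checked entries of nuclear mRNA, 110 (16.3%) held no count in any library. Drd3 entered no test, and whether it differed between the groups was not detectable in these counts. The part of its fragments that the entry holds is not known, so that the limits apply to the deposited counts alone.

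Adcy5 was the steadiest of the genes that were counted. Its counts were 113, 80 and 95 in Sst (28.1, 20.4 and 25.6 CPM) and 105 and 56 in Sst+Nic (36.0 and 11.5 CPM). In Thy1 they were 74 and 116 (21.2 and 31.8 CPM) and in Thy1+Nic 104, 219 and 68 (29.9, 51.8 and 20.0 CPM). The highest library was Thy1+Nic replicate 2 and the lowest Sst+Nic replicate 3, a 4.51-fold range, and every pair of groups overlapped. The standard deviation of log2(CPM + 1) was 0.56, beside a median of 0.86 over the 548 entries. Group means with their SD were 24.7 ± 3.93 for Sst (n = 3), 23.7 ± 17.3 for Sst+Nic (n = 2), 26.5 ± 7.53 for Thy1 (n = 2) and 33.9 ± 16.2 for Thy1+Nic (n = 3). No neighbours in the order of these means differed beyond their spread.

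The log2 fold change of Adcy5 after nicotine was -0.32 (SE 0.72) in Sst-neurons and 0.48 (SE 0.64) in Thy1-neurons, and both adjusted p-values of edgeR were 1.00. Between the cell types over both treatments it was -0.72 (SE 0.50, 95% interval -1.78 to 0.35, adjusted p = 0.493 from edgeR). Without Thy1 replicate 3 it was -0.68 (adjusted p = 0.680). The interval over all libraries includes no difference as well as a level in Sst-neurons well below that in Thy1-neurons. Within treatments the values were -0.30 (SE 0.61) under saline and -1.13 (SE 0.75) under nicotine, and the difference between the nicotine effects was -0.84 (SE 0.97). With 1 library left out, the value under nicotine lay between -1.99 and -0.58 and the difference between -1.68 and -0.27.

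Adcy9 had the highest mean CPM of the 5 entries. It was counted 284, 182 and 25 times in Sst (70.6, 46.4 and 6.75 CPM) and 303 and 203 times in Sst+Nic (103.9 and 41.6 CPM). In Thy1 it was counted 501 and 159 times (143.5 and 43.7 CPM) and in Thy1+Nic 368, 339 and 537 times (106.0, 80.1 and 158.2 CPM). Sst replicate 3 was the lowest library, 23.4-fold below the highest, Thy1+Nic replicate 3. Thy1 replicate 3 lay inside the range of the Sst group, and Sst+Nic replicate 2 inside that of Thy1+Nic. Its entry holds part of the fragments of the gene, as most entries behind the sums do, so that its CPM may be too low or too high.

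The group means of Adcy9, from low to high, were those of Sst (41.3 ± 32.2 CPM, SD, n = 3), Sst+Nic (72.8 ± 44.1, n = 2), Thy1 (93.6 ± 70.6, n = 2) and Thy1+Nic (114.8 ± 39.8, n = 3). Neighbours in this order lay within their spread. Between the cell types the log2 fold change was -1.33 under saline (SE 0.89, adjusted p = 0.559 from edgeR) and -1.18 under nicotine (SE 0.47, 95% interval -2.28 to -0.09, adjusted p = 0.282 from edgeR). Leaving out 1 library moved the value under saline from -0.42 (without Thy1 replicate 2) to -1.92 (without Thy1 replicate 3). Over both treatments it was -1.26 (SE 0.51, 95% interval -2.37 to -0.15, unadjusted p = 0.0291, adjusted p = 0.186 from edgeR). The value was below 0 in all 19 alternatives to the last comparison, from -1.50 to -0.91, with adjusted p-values from 0.05005 to 0.438, and it was -1.47 (adjusted p = 0.123) without Thy1 replicate 3. After nicotine the log2 fold change was 0.58 (SE 0.86) in Sst-neurons and 0.41 (SE 0.51) in Thy1-neurons, and the difference between these effects was 0.13 (SE 1.05). Each of the nicotine values turned when 1 library was left out, to -0.08 without Sst+Nic replicate 2 and to -0.14 without Thy1 replicate 3.

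**Figure D3:**
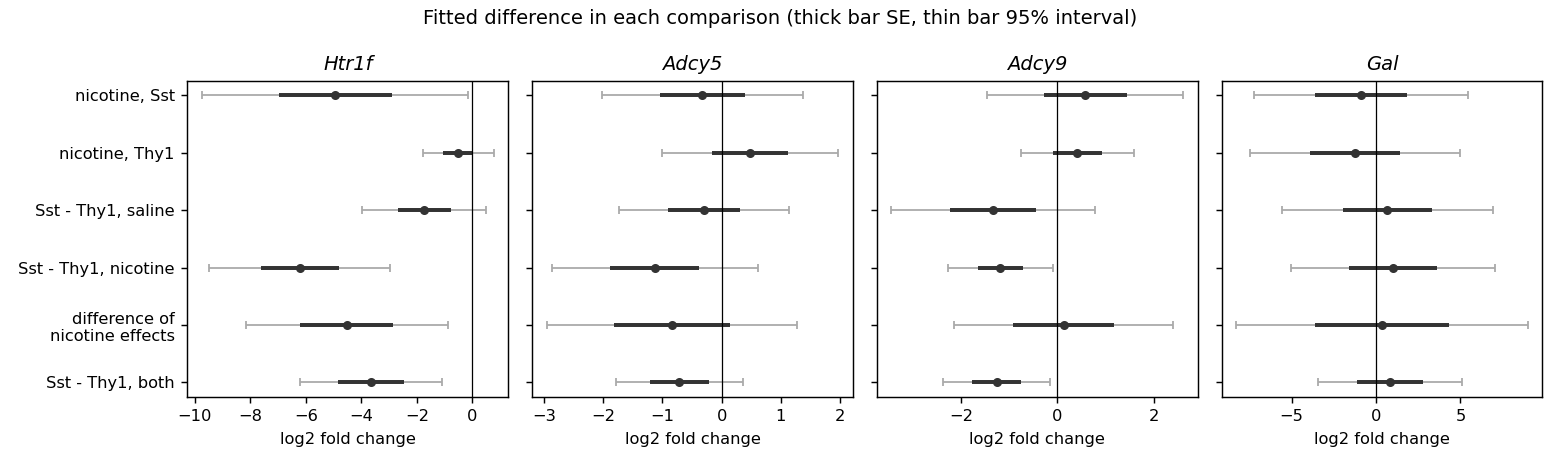
Fitted log2 fold change (horizontal axis, range differs between panels) of the 4 genes with counts in each of 6 comparisons (vertical axis). Points are estimates of edgeR, thick bars standard errors and thin bars 95% intervals. The interval lies below 0 for Htr1f in 4 comparisons and for Adcy9 in 2 (under nicotine and over both treatments), and those of Adcy5 and Gal include 0 throughout.

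Gal was counted in 5 libraries. The counts were 2, 53 and 0 in Sst (0.497, 13.5 and 0 CPM) and 21 and 0 in Sst+Nic (7.20 and 0 CPM). They were 0 and 20 in Thy1 (0 and 5.49 CPM) and 0, 13 and 0 in Thy1+Nic (0, 3.07 and 0 CPM). Each group had at least 1 library with 0 counts and 1 with 13 or more, so that all 4 groups overlapped. The library of Thy1 with Gal was replicate 3, the one with 13823 counts of Sst, whereas Thy1+Nic replicate 2 held 13 counts of Gal beside 10 of Sst. Of the libraries with Gal, Sst replicate 2 also held Cldn5. The part of these cells in the counts of Gal was not tested.

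Fitted values for Gal had wide intervals. The log2 fold change was -0.88 (SE 2.70) after nicotine in Sst-neurons and -1.25 (SE 2.69) in Thy1-neurons. Between the cell types it was 0.68 (SE 2.64) under saline, 1.02 (SE 2.60) under nicotine and 0.84 (SE 1.97, 95% interval -3.42 to 5.09) over both treatments, with an adjusted p of 0.906 from edgeR in the last. Without Thy1 replicate 3 the last was 2.25 (SE 2.86, adjusted p = 0.760). The difference of the nicotine effects was 0.35 (SE 3.97). The sign of this difference, of the nicotine value in Sst-neurons and of the cell type difference under saline and over both treatments turned when single libraries were left out. Where Gal passed the filter with 1 library left out, the nicotine value in Thy1-neurons lay between -2.24 and -0.67. The cell type difference under nicotine then lay between 0.47 and 2.00.

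For nicotine the test called 0 of the 4 genes in either cell type. In Sst-neurons it called 0 of 6689 entries (0%), with 280 (4.19%) at an unadjusted p under 0.05, and in Thy1-neurons 0 of 6048 (0%), with 264 (4.37%). For the difference between the nicotine effects it called 0 of 8242 (0%), with 604 (7.33%) at an unadjusted p under 0.05. Of the 4 genes, Htr1f alone was at an unadjusted p under 0.05 in Sst-neurons and in the difference of effects, and none was in Thy1-neurons. DESeq2 called 18, 14 and 11 entries in the 3 comparisons, and limma voom called 0 in each of them. None of these calls was one of the 4 genes.

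Levels between genes were compared per length. Mean CPM per kilobase of exon over the 10 libraries was 15.4 for Adcy9, 10.1 for Htr1f, 3.85 for Adcy5 and 3.78 for Gal, with exon lengths of 5197, 2579, 7184 and 788 bases from GENCODE. Before length was taken into account, the mean CPM of Htr1f and Adcy5 were close, at 26.0 and 27.6. Adcy9 and Htr1f are entries that hold part of their fragments, and the part held by the entries of Adcy5 and Gal is not known, so that the order of the genes is not established.

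Of 115 listed genes of monoamine, cAMP and neuropeptide signalling, 13 had position-checked entries, the 5 genes above among them. Of the other 8, 7 could be tested between the cell types over both treatments, among them Sst, whose cells the reporter of the Sst line marks, so that its difference was set by the collection and is no finding. Of the 6 without Sst, 1 was called, Rasgrp2, beside 4.62% of all entries. The median log2 fold change of the 6 was -0.25, beside 0.08 over all entries tested, and with Sst it was 0.07. Casr, the calcium-sensing receptor, held 1 count over all libraries, below what a test needs.

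Rasgrp2, an exchange factor that activates the small G protein Rap1, was higher in Sst-neurons over both treatments, by 2.38 on the log2 scale (SE 0.41, adjusted p = 0.00415 from edgeR), and by 2.16 without Thy1 replicate 3 (adjusted p = 0.00306). It lay between 187 and 225 CPM in the 5 Sst-neuron libraries and between 14.2 and 55.9 CPM in the 5 Thy1-neuron libraries. Within saline the value was 2.47 (SE 0.48, adjusted p = 0.0646 from edgeR) and within nicotine 2.28 (SE 0.62, adjusted p = 0.163 from edgeR). Sst, the marker of the collection, was higher by 8.24 (SE 1.94, adjusted p = 0.0264 from edgeR) over both treatments, and by 12.31 without Thy1 replicate 3 (adjusted p = 5.9e-07).

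The remaining listed genes reported here were not called in any comparison. Crebbp, the CREB-binding acetyltransferase through which cAMP-dependent transcription runs, had a log2 fold change of 0.07 (SE 0.29) between the cell types over both treatments, and of -0.05 (SE 0.34) without Thy1 replicate 3. Ppp1ca, a catalytic subunit of protein phosphatase 1, had -0.57 (SE 0.17, adjusted p = 0.0753 from edgeR), and Ppp1r2, an inhibitor of that phosphatase, -0.59 (SE 0.23, adjusted p = 0.166 from edgeR). In the fit that leaves out Thy1 replicate 3 they had -0.50 (adjusted p = 0.345 from edgeR) and -0.64 (adjusted p = 0.317 from edgeR). Gsk3b, a kinase of the insulin and Wnt pathways, had 0.56 (SE 0.31), or 0.69 (SE 0.30) without that library, with values of -0.18 (SE 0.17) under saline and 1.31 (SE 0.42, adjusted p = 0.224 from edgeR) under nicotine. Popdc2, which binds cAMP in its Popeye domain, was counted 44 times in Sst replicate 1, 39 times in Thy1 replicate 3 and once elsewhere.

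**Figure D4:**
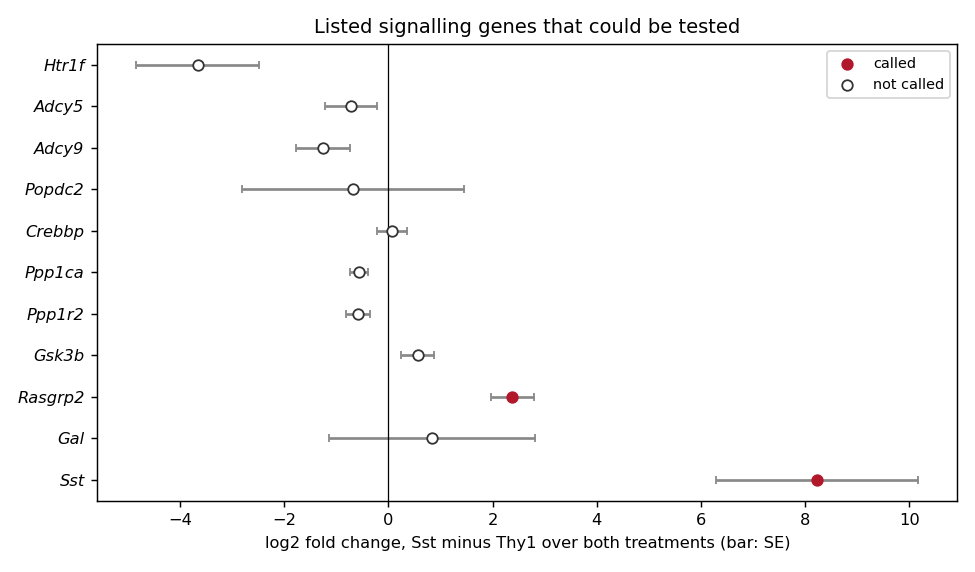
Log2 fold change, Sst minus Thy1 over both treatments (horizontal axis, bars are standard errors), of the 11 listed signalling genes reported here that passed the filter on low counts (vertical axis). Filled red points were called and open points were not. Rasgrp2 lies at 2.38 and Sst at 8.24, and the open point of Htr1f lies at -3.66.

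The profiles most like those of the genes were sought among the 548 position-checked entries that passed the filter, by the root mean square difference of log2(CPM + 1) after centring over the 10 libraries. Htr1f was nearest to Pmm2 (an enzyme of protein glycosylation, difference 1.18) and Plcxd2 (1.24), and its own profile had a root mean square of 2.01 about its mean. Pmm2 lay between 1.23 and 48.3 CPM in Sst-neurons and between 15.1 and 101.9 CPM in Thy1-neurons. Plcxd2 lay between 86.1 and 185.5 CPM in Sst-neurons and between 345.3 and 808.4 CPM in Thy1-neurons. Adcy5 was nearest to Tnk2 (a tyrosine kinase, 0.41) and Lig4 (a DNA ligase, 0.41), beside 0.53 about its own mean. Adcy9 was nearest to Col4a2 (a chain of collagen type IV, 0.41) and Cul4a (a scaffold of ubiquitin ligases, 0.63), beside 1.2 about its mean. Gal was nearest to Ptprcap (1.04) and 1810013L24Rik (1.19), beside 1.45 about its mean. These are the closest of many profiles and no test was made of them.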

How the data were processed

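RNA of hand-collected cortical neurons was amplified and sequenced as paired-end reads. The authors aligned the reads to the mouse genome (GRCm38) with TopHat and deposited fragment counts per gene entry, not normalized; the submitters' processing notes also name HTSeq, and versions are not given in the sources used here. The 5 genes, the lists and the tests were chosen with earlier results of these data known.

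Most nuclear entries hold only part of the fragments behind the group values of the study. Nuclear entries were read by name only inside stretches of chromosomes 7, 8, 16 and 19 (891 entries). In these stretches every entry compared (group value of 50 or more) held between 0.3 and 3 times that value. Only 55 of them had such a value in Sst, and most were included by position alone. With 13 mitochondrially encoded entries they make up the 904 named position-checked. Of the group value in Sst, the entry of Adcy9 held 50.5% and that of Htr1f 87.9%. Neither Drd3, Adcy5 nor Gal had a value to compare.

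Each comparison of 2 groups used their 5 libraries. The difference between nicotine effects and the cell type difference over both treatments used all 10. Counts were tested with the quasi-likelihood test of edgeR 4.0.16 (R 4.3.3), TMM normalization and filterByExpr (minimum count 10), adjusted after Benjamini and Hochberg over all entries tested. Standard errors come from the log2 fold change and test statistic, and intervals from the degrees of freedom of the fit. CPM is the count relative to the sum of all deposited entries of the library, which is short where entries hold only part of their fragments. Exact permutation tests, two-sided, used log2(CPM + 1) with scipy 1.17.1. Alternatives to the fits were DESeq2 1.42.0, limma voom 3.58.1, other normalizations and filters, the replicate number as a block, and each library left out. Named genes were the 5 genes, position-checked genes of the signalling and marker lists, and the 2 entries nearest in profile to each gene. Some listed genes are not reported here and are left out of the counts of the list. Fits were tested on simulated data with 200 genes changed by 3 on the log2 scale at a dispersion of 0.4, and the share recovered was 32.0% for nicotine in Sst-neurons, 34.5% for nicotine in Thy1-neurons, 19.0% for the cell types under saline and 34.0% under nicotine. In the deposited data the common dispersion lay between 0.826 and 1.33. The rule for position-checked entries was chosen with these values known. The table was read with 10 columns of per-sample values, all of which were used, and replicate 1 of Sst+Nic and of Thy1 was not analysed here.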

Additional observations from a re-analysis of the deposited data

How the results depend on the processing

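Of 382 log2 fold changes of the 4 genes under alternatives, 354 kept their direction and their side of the threshold, 9 of Htr1f passed it and 19 turned. For Htr1f under nicotine these were DESeq2, no filter (adjusted p = 6.1e-05) and at least 10 counts in a library (adjusted p = 0.00487), and over both treatments the 6 fits given above; all 96 values of Htr1f stayed below 0. Apart from a turn of Gal under the replicate block, given below, values turned where a library was left out. In the nicotine comparison of Sst-neurons they ranged from -1.21 to 0.18 for Adcy5, from -0.076 to 1.04 for Adcy9 and from -7.50 to 0.085 for Gal. In that of Thy1-neurons they ranged from -0.016 to 0.95 for Adcy5 and from -0.14 to 1.39 for Adcy9. For the cell types under saline they ranged from -0.69 to 0.11 for Adcy5 and from -0.36 to 7.32 for Gal, over both treatments from -0.82 to 2.30 for Gal, and for the difference of nicotine effects from -0.80 to 0.70 for Adcy9 and from -6.24 to 5.73 for Gal. The cause was not tested.

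The number of entries called moved with the test and the filter. DESeq2 called 18 and 14 for nicotine in Sst-neurons and Thy1-neurons, 563 and 508 for the cell types under saline and nicotine, 11 for the difference of nicotine effects and 861 for the cell types over both treatments. Without a filter the numbers were 8, 13, 454, 356, 36 and 673 in the same order. With at least 10 counts in a library they were 7 for nicotine in Thy1-neurons, 266 and 275 for the cell types under saline and nicotine, 27 for the difference and 622 over both treatments. Limma voom called 65 for the cell types under nicotine and 693 over both treatments, and all libraries in 1 fit called 105 under nicotine. With position-checked entries alone, fewer entries were tested and 33, 17 and 63 were called for the cell types under saline, under nicotine and over both treatments. Leaving out 1 library gave 33 to 55 calls under saline, 0 to 56 under nicotine, 0 to 5 for the difference and 296 to 397 over both treatments. Library totals without TMM shifted the median log2 fold change of all entries by 0.50 under nicotine and 0.33 over both treatments, and turned the split of higher against lower calls from 15 against 18 to 17 against 7 and from 161 against 220 to 264 against 148.

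Deviations from the group means correlated between -0.0787 and 0.0267 for same-numbered libraries (13 pairs). For libraries of other numbers they correlated between -0.0588 and 0.0811 (24 pairs). In groups of 2 libraries these deviations mirror each other, so that a pairing by replicate number could not be decided. With the replicate number as a block, 59 entries were called under saline, 9 under nicotine and 341 over both treatments, none for nicotine or for the difference, and none of the 4 genes. Under the block the cell type difference of Gal over both treatments turned to -1.01. Permutation results kept their side of the threshold with TMM-adjusted library sizes. Without Thy1 replicate 3, an alternative chosen after seeing the data, the exact permutation test of Htr1f did not pass (difference -3.23, p = 0.075). Without mitochondrially encoded genes in the library size, 5 of 16 group means moved by more than 1 SD, all upward. A count of 0 allows up to 1.03 CPM in the shallowest library.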
